A study of Homo sapiens with 4 samples.

Results

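The genes described here are 53 regulators of pre-mRNA splicing, named by symbol and found in the count table through their Ensembl IDs; the table held 78932 gene rows in all. They comprise 12 SR proteins (SRSF1 to SRSF12), 5 SR-related proteins, 18 hnRNPs, 3 polypyrimidine tract binding (PTB) proteins, 5 regulators known for tissue-type splicing (RBFOX2, the MBNL proteins and QKI), 6 other RNA-binding regulators and the 4 CLK kinases. The cells were RPMI 8226, a long-established line derived from human multiple myeloma, and RNA-seq was done 72 h after they received a locked nucleic acid (LNA) antisense oligonucleotide, a short modified strand that lowers the RNA it pairs with. Of the 4 libraries, 2 came from cells given an LNA against the long noncoding RNA LINC01432 at 50 nM and 2 from cells given a control LNA, whose dose is not stated separately. The labels give each group a single oligonucleotide, so LINC01432 LNA stands for 1 sequence and control LNA for 1 other. Nothing in the labels says that the replicates are separate cultures, so that the p-values rest on a spread between libraries that may be technical.

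SR proteins bind exonic enhancers through RNA recognition motifs and recruit the splicing machinery through domains rich in arginine and serine, whereas many hnRNPs bind silencers and oppose exon inclusion. CLK kinases phosphorylate the arginine-serine domains and so control where SR proteins sit in the nucleus. Many of these genes regulate their own RNA and that of their relatives through poison exons, which send the transcript to nonsense-mediated decay. The values here are counts per gene: they do not separate a productive transcript from one with a poison exon, and they measure neither protein nor splicing.

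The libraries held 20873393 to 29161298 gene counts, so that 3 counts, taken as the floor, were worth 0.103 to 0.144 CPM (counts scaled to a common library size). CPM of the floor and of the summed markers use the total gene counts, and all other CPM use TMM-scaled library sizes. LINC01432 itself had 193 and 250 counts (9.0 and 9.90 CPM) in LINC01432 LNA cells, against 598 and 440 counts (20.5 and 17.9 CPM) in control LNA cells, a log2 fold change of -1.02 ± 0.11 (SE; edgeR quasi-likelihood test, adjusted p = 0.000228). A gene was called when its Benjamini-Hochberg adjusted p over the 18680 genes tested was under 0.05; 2218 genes, or 11.9%, were called, 1401 of them higher (7.5%) and 817 lower (4.37%) in LINC01432 LNA cells. All 9 plasma cell and myeloma markers examined were detected, with summed levels of 2717 and 2891 CPM in LINC01432 LNA cells and 3040 and 3238 CPM in control LNA cells. Of these markers CD38 rose (log2 fold change 0.72; edgeR, adjusted p = 0.000434), and TNFRSF17 (-0.53; adjusted p = 0.00158) and XBP1 (-0.35; adjusted p = 0.0158) fell. In LINC01432 LNA cells the summed levels were 1.96 and 2.56 CPM for markers of T and NK cells, 6.13 and 7.64 CPM for myeloid cells, 6.52 and 7.41 CPM for fibroblasts and endothelium and 103 and 95.7 CPM for epithelium. In control LNA cells they were 1.37 and 1.80, 4.84 and 5.10, 4.66 and 4.82, and 118 and 115 CPM for the same lists. COL1A1, 1 of 2 fibroblast and endothelial markers tested, rose (0.86; edgeR, adjusted p = 0.0272; DESeq2, adjusted p = 0.0703); these 4 markers are named after their values were seen. LYZ, S100A8 and KRT19 were at 0 in every library, and the part of other cell types in the values below was not tested. In bulk RNA, fewer cells that express a gene and less RNA per cell cannot be told apart.

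The splicing regulators as a set differed little between LINC01432 LNA and control LNA cells. Of the 52 members tested, 1 rose (HNRNPM; 7.5% of all genes did), 2 fell (SRRM1 and PTBP3; 4.37% of all genes) and 49 were not called. Called in either direction were 5.77% of the members, against 11.9% of all genes tested and 18.9% of genes with a mean of at least 10 CPM. Unadjusted p-values under 0.05 were found for 12 of the 52 members, against 25.7% of all genes and 3046 of the 8476 genes with at least 10 CPM. Log2 fold changes (LINC01432 LNA over control LNA, in all that follows) ran from -0.32 to 0.32 with a median of -0.06, while the median of all genes tested was 0.01 and that of genes with at least 10 CPM was -0.03. Leaving out 1 library gave the members a median from -0.104 (without LINC01432 LNA replicate 2) to -0.0755. The 95% interval of the fold lay wholly within 1.5-fold either way for all 52 members, against 48.7% of all genes and 86.0% of genes with at least 10 CPM. SRSF12, a member of the SR family with a restricted expression pattern, had 5 and 0 counts in LINC01432 LNA cells and 4 and 3 counts in control LNA cells and was not tested.

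Small values lay more often below 0 than above it. The log2 fold change was negative for 38 of the 52 members, against 48.1% of all genes and 56.8% of genes with at least 10 CPM. It was negative for 27 with a GC correction and for 24 with a correction for GC and length. In the latter the median turned to 0.02, against -0.007 over all genes. The shares of all genes are those without a correction. Both LINC01432 LNA libraries lay below both control libraries for 29 members (25.9% of all genes and 37.1% of those with at least 10 CPM did so) and above both for 9 members (28.2% and 26.1%), and the groups overlapped for 14 members; 54.1% of all genes did not overlap. Together the members took 1.21% and 1.18% of the gene counts in LINC01432 LNA libraries, against 1.26% and 1.27% in control LNA libraries. The range of the fold changes and their intervals is drawn by role.

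**Figure D1:**
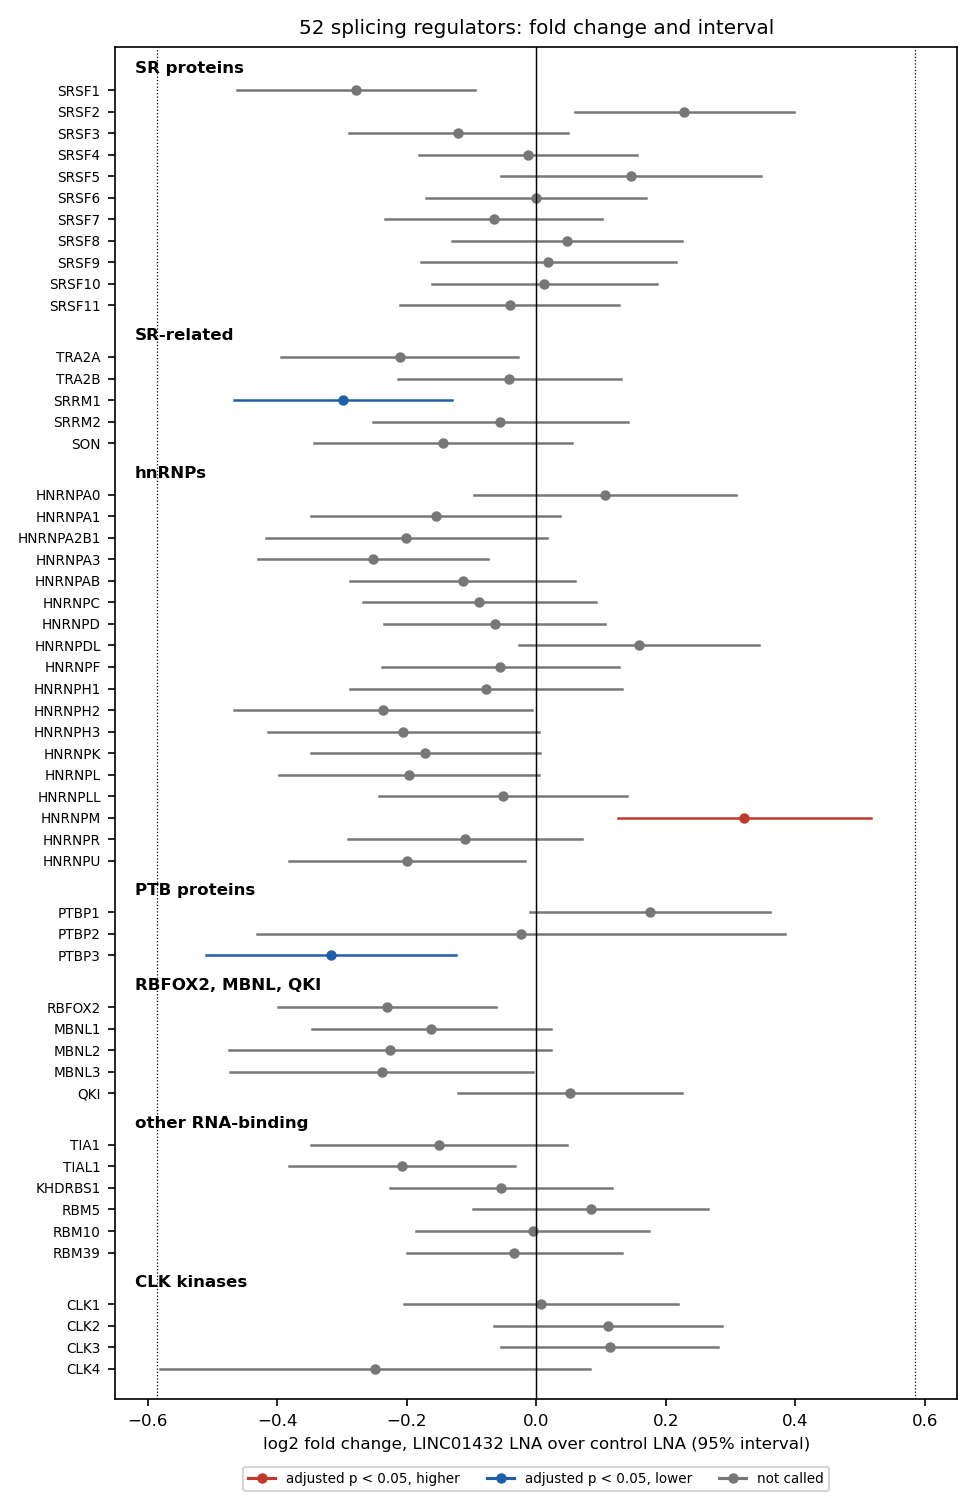
Log2 fold change of 52 splicing regulators (x axis, LINC01432 LNA over control LNA; points) with its 95% interval from the edgeR fit (lines), grouped by role; dotted lines mark 1.5-fold either way. HNRNPM (red) was called higher, SRRM1 and PTBP3 (blue) were called lower, and no interval reached past 1.5-fold.

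Levels per exon length spanned a wide range. The length counts all annotated exonic bases of a gene, which can exceed that of the RNA expressed. The order of genes on this scale therefore depends partly on the annotation. In LINC01432 LNA cells HNRNPU, with 22512 exonic bases, had a mean of 772 CPM but 34.3 CPM per kb. HNRNPA1, with 5093 exonic bases, had 836 CPM there and 164 CPM per kb. HNRNPA1, which represses exons and shuttles mRNA out of the nucleus, was the highest per exon length. Its mean was 164 CPM per kb in LINC01432 LNA cells and 183 CPM per kb in control LNA cells. In LINC01432 LNA cells HNRNPAB followed with 157, PTBP1 with 111, HNRNPF with 103 and HNRNPA2B1 with 89.6 CPM per kb. In control LNA cells these levels were 169 for HNRNPAB, 98.1 for PTBP1, 107 for HNRNPF and 103 CPM per kb for HNRNPA2B1; the order of PTBP1, HNRNPF and HNRNPA2B1 was not the same in both groups. The lowest tested members per exon length were PTBP2, the PTB protein of neurons, and CLK4. PTBP2 was at 0.27 CPM per kb in both groups. CLK4 was at 0.65 CPM per kb in LINC01432 LNA cells and 0.77 CPM per kb in control LNA cells.

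The promoter windows of the 3 called members are shown because they are the genes whose RNA differed past the threshold. A window runs from 250 bases before to 50 bases after the annotated start in RefSeq (GRCh38.p14), and 47 of the 53 members had one. All 3 are rich in GC. Letters are written 5′ to 3′ on the gene's strand; capitals mark GGGCGG (the GC box bound by SP1), CCGGAAG (an ETS-family site) or CCAAT (the NF-Y site) on either strand. The windows lie at chr1:24643052-24643351 on the plus strand for SRRM1, chr9:112332977-112333276 on the minus strand for PTBP3 and chr19:8444725-8445024 on the plus strand for HNRNPM.
SRRM1: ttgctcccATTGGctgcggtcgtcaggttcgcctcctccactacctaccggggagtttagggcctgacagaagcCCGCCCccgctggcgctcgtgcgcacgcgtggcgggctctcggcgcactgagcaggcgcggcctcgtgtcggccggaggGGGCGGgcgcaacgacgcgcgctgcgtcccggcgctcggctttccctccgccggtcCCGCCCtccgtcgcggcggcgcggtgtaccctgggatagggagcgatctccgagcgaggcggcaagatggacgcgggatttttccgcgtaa
PTBP3: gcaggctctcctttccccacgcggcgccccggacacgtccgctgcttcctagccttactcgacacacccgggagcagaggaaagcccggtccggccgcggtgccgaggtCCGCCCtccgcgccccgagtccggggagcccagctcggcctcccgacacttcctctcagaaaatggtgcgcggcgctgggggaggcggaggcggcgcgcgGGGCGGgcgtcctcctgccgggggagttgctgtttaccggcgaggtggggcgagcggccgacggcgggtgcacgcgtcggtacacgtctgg
HNRNPM: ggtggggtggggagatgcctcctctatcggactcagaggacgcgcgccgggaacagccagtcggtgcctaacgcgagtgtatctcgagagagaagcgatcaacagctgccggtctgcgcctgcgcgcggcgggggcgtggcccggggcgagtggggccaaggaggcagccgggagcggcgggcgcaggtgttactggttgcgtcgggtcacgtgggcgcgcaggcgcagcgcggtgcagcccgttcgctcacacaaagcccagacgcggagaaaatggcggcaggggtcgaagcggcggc
The GC content was 72.0% for SRRM1, 74.0% for PTBP3 and 70.7% for HNRNPM, and the SRRM1 and PTBP3 windows lie wholly inside the spans that GENCODE 29 gives these genes. SRRM1 held GGGCGG 3 times and CCAAT 1 time, PTBP3 held GGGCGG 2 times, and HNRNPM held none of the 3 motifs. Over the 47 members the median GC content was 64.0%, against 58.3% over all 27305 windows. GGGCGG was found in 30 of the 47 members' windows (63.8%, against 44.6% of all windows), CCAAT in 20 (42.6%, against 35.7%) and CCGGAAG in 5 (10.6%, against 10.7%). TATAAA, the TATA box, was found in 6 windows (12.8%, against 12.0%): those of SRSF11, TIA1, HNRNPD, HNRNPAB, SRSF3 and HNRNPC. Both strands were searched, matches of different motifs could overlap, and a match describes letters, not a site. The windows of all genes were taken whatever the level of the gene, and windows of like GC content or level were not compared.

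SR proteins held no called member in the main test. Of the 11 tested, 0 passed the test (edgeR), 2 had an unadjusted p under 0.05, and DESeq2 and limma-voom likewise called 0. Over all genes, edgeR called 11.9%, and 25.7% had an unadjusted p under 0.05. Their median log2 fold change was -0.00022, with a range from -0.28 to 0.23, and 6 of 11 lay below 0; leaving out 1 library gave medians from -0.0565 (without control replicate 1) to 0.00414 (without control replicate 2). With a GC correction 2 of 11 lay below 0, with a median of 0.108. With a correction for GC and length 1 of 11 lay below 0, with a median of 0.115. The summed level of the SR proteins was 1177 and 1208 CPM in LINC01432 LNA libraries, against 1197 and 1215 CPM in control LNA libraries, so the groups overlapped. SRSF1, the founding SR protein and a proto-oncogene that promotes exon inclusion, had 37.6 and 36.1 CPM in LINC01432 LNA cells, against 43.0 and 46.3 CPM in control LNA cells. Both LINC01432 LNA libraries lay below both controls, but the log2 fold change of -0.28 ± 0.08 (SE) missed the threshold (edgeR, adjusted p = 0.0544). With a GC correction SRSF1 was at -0.19 (edgeR, adjusted p = 0.107). SRSF2, an SR protein with recurrent mutations in myeloid neoplasms, had 114 CPM in each LINC01432 LNA library, against 94.7 and 99.7 CPM in control LNA cells. The 2 libraries with LINC01432 LNA were the higher ones, with a log2 fold change of 0.23 ± 0.08 (SE) and an adjusted p of 0.0809 in edgeR. With a GC correction SRSF2 was at 0.26 and was called (edgeR, adjusted p = 0.0193).

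SRSF1 and SRSF2 carry a limit of the counting. In GENCODE 29, 56.6% of the exonic bases of SRSF1 are shared with genes on the same strand and 13.2% with genes on the opposite strand. The largest overlap is with AC015813.2, a gene with 1 and 0 counts in LINC01432 LNA libraries and 0 in each control. For SRSF2, 36.7% of the exonic bases are shared with genes on the opposite strand. The largest overlap is with MFSD11, which had 15.6 and 15.7 CPM in LINC01432 LNA cells and 17.0 and 20.1 CPM in control LNA cells. Reads in shared bases may have been dropped or split, and the values of SRSF1 and SRSF2 are uncertain to that degree. The other SR proteins ran from -0.12 for SRSF3, the smallest SR protein, to 0.15 for SRSF5, which is known to be induced by growth signals. SRSF6 shows how close some levels were: 59.2 and 60.0 CPM in LINC01432 LNA cells, against 59.6 and 59.6 CPM in control LNA cells. A pseudogene row took counts equal to 10.6% to 14.7% of those of SRSF6. SRSF9 shares 46.2% of its exonic bases with genes on the opposite strand, with the largest overlap for GATC. It had 138 and 158 CPM in LINC01432 LNA cells against 140 and 152 CPM in control LNA cells.

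Among SR-related proteins, SRRM1 fell and the other 4 were not called, against 4.37% of all genes called lower and 11.9% called in either direction. SRRM1 is a coactivator that bridges SR proteins bound to an enhancer and the core machinery, and lies at chr1:24631716-24673267 in GENCODE 29. It had 146 and 140 CPM in LINC01432 LNA cells (143 ± 3.82, SD, n = 2), against 174 and 177 CPM in control LNA cells (176 ± 1.89, SD, n = 2). The groups did not overlap, and the fold of 0.81 corresponded to a log2 fold change of -0.30 ± 0.08 (SE; edgeR, adjusted p = 0.0278). With a GC correction the log2 fold change was -0.22 (edgeR, adjusted p = 0.0369), with a correction for GC and length the adjusted p was 0.0753, and without control replicate 1 or 2 it was 0.393 or 0.455. TRA2A, a transformer-2 homologue that activates exons, had 27.0 and 27.6 CPM in LINC01432 LNA cells, against 31.6 and 31.6 CPM in control LNA cells, with a log2 fold change of -0.21 (edgeR, adjusted p = 0.134). Its paralogue TRA2B had 232 and 241 CPM in LINC01432 LNA cells against 248 and 239 CPM in control LNA cells, and these ranges overlapped. The nuclear speckle scaffolds SRRM2 and SON had log2 fold changes of -0.06 and -0.14 and were not called. All 5 SR-related genes lay below 0, with a median of -0.14, and 4 of them with the GC correction. Without LINC01432 LNA replicate 2 the median was -0.0886, with 4 of 5 below 0.

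None of the 4 CLK kinases, which phosphorylate SR proteins, was called by edgeR, DESeq2 or limma-voom. None had an unadjusted p under 0.05 in edgeR. Over all genes, edgeR called 11.9%, and 25.7% had such a p. CLK4 had the smallest p, with 5.55 and 4.79 CPM in LINC01432 LNA cells against 5.87 and 6.40 CPM in control LNA cells. Its log2 fold change of -0.25 ± 0.15 (SE) had the widest interval of any member except PTBP2 and an adjusted p of 0.344 in edgeR. CLK2 and CLK3 both had a log2 fold change of 0.11 and lay above both controls, and CLK1 was at 0.01. Above both controls lay 28.2% of all genes and 26.1% of those with at least 10 CPM. The median of the 4 was 0.06, against 0.00563 without LINC01432 LNA replicate 1 and 0.0122 without control replicate 2. With a GC correction CLK1 was at 0.13, CLK2 at 0.01, CLK3 at 0.06 and CLK4 at -0.10.

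Among the hnRNPs, 1 gene rose. HNRNPM rose and the other 17 were not called, against 7.5% of all genes called higher and 11.9% called in either direction. Of the 18 log2 fold changes 15 were negative, with a median of -0.11. With a GC correction 11 were negative, and with GC and length 9. Without LINC01432 LNA replicate 2 the median was -0.179, and without replicate 1 it was -0.0953. In 12 of the 18 both LINC01432 LNA libraries lay below both controls, as in 25.9% of all genes and 37.1% of genes with at least 10 CPM. Their summed level was 6058 and 6626 CPM in LINC01432 LNA libraries, against 6774 and 6905 CPM in control LNA libraries. HNRNPM, which binds GU-rich RNA and regulates exons during epithelial-mesenchymal transition, lies at chr19:8444767-8489114 in GENCODE 29. It had 367 and 423 CPM in LINC01432 LNA cells (395 ± 39.9, SD, n = 2), against 313 and 319 CPM in control LNA cells (316 ± 4.48, SD, n = 2). Both LINC01432 LNA libraries were above both controls, library 2 by more, and the fold was 1.25, with a 95% interval from 1.09 to 1.43 (log2 fold change 0.32 ± 0.09, SE; edgeR, adjusted p = 0.0383). With a GC correction it was 0.26 (edgeR, adjusted p = 0.0292). The call was lost with DESeq2's size factors (edgeR, adjusted p = 0.0519) and without control replicate 1 or 2 (0.559 or 0.460).

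Of the other hnRNPs, HNRNPA3 came nearest to the threshold in the main test. This relative of HNRNPA1 had 101 and 111 CPM in LINC01432 LNA cells, against 128 and 125 CPM in control LNA cells, with a log2 fold change of -0.25 ± 0.08 (SE; edgeR, adjusted p = 0.0688). With a GC correction HNRNPA3 was at -0.12 (edgeR, adjusted p = 0.382). The 16 pseudogene rows of HNRNPA3 held counts equal to 26.0% to 28.4% of those of the gene, so that part of its reads may have been assigned elsewhere. HNRNPU, a scaffold protein of nuclear RNA and chromatin, had 795 and 748 CPM in LINC01432 LNA cells, against 884 and 889 CPM in control LNA cells (log2 fold change -0.20; edgeR, adjusted p = 0.156). HNRNPA1 had 791 and 880 CPM in LINC01432 LNA cells against 941 and 920 CPM in control LNA cells, and HNRNPA2B1, which reads RNA motifs for sorting and splicing, had 758 and 903 CPM in LINC01432 LNA cells against 926 and 983 CPM in control LNA cells. Their groups did not overlap, and neither was called (edgeR, adjusted p = 0.306 and 0.233). HNRNPDL, with 162 and 180 CPM in LINC01432 LNA cells against 148 and 159 CPM in control LNA cells, and HNRNPA0, with 131 and 155 CPM in LINC01432 LNA cells against 130 and 135 CPM in control LNA cells, were the only hnRNPs above 0 beside HNRNPM. Pseudogene rows were also present for HNRNPA1 (74 rows, 4.97% to 5.80% of its counts), HNRNPC (6.81% to 8.69%), HNRNPK (11.8% to 13.1%) and HNRNPL (6.08% to 7.45%).

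Of the PTB proteins, which bind pyrimidine tracts and repress exons, PTBP3 fell and the other 2 were not called. Over all genes 4.37% were called lower and 11.9% in either direction. PTBP3, known for roles in blood cell differentiation, lies at chr9:112217716-112333667 in GENCODE 29. It had 62.0 and 55.2 CPM in LINC01432 LNA cells (58.6 ± 4.82, SD, n = 2), against 70.0 and 76.0 CPM in control LNA cells (73.0 ± 4.26, SD, n = 2). The groups did not overlap and the fold was 0.80 (log2 fold change -0.32 ± 0.09, SE; edgeR, adjusted p = 0.0390). With a GC correction the log2 fold change was -0.17 and the call was lost (edgeR, adjusted p = 0.129), as it was with library totals as the only scaling (0.0734) and without control replicate 1 or 2 (0.189 or 0.487). PTBP1, the widely expressed paralogue, lay on the other side with 731 and 794 CPM in LINC01432 LNA cells, against 669 and 682 CPM in control LNA cells (log2 fold change 0.18; edgeR, adjusted p = 0.222), and its sign turned to -0.06 with the GC correction. PTBP2 had 3.78 and 3.17 CPM in LINC01432 LNA cells against 3.67 and 3.34 CPM in control LNA cells, and the groups overlapped.

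**Figure D2:**
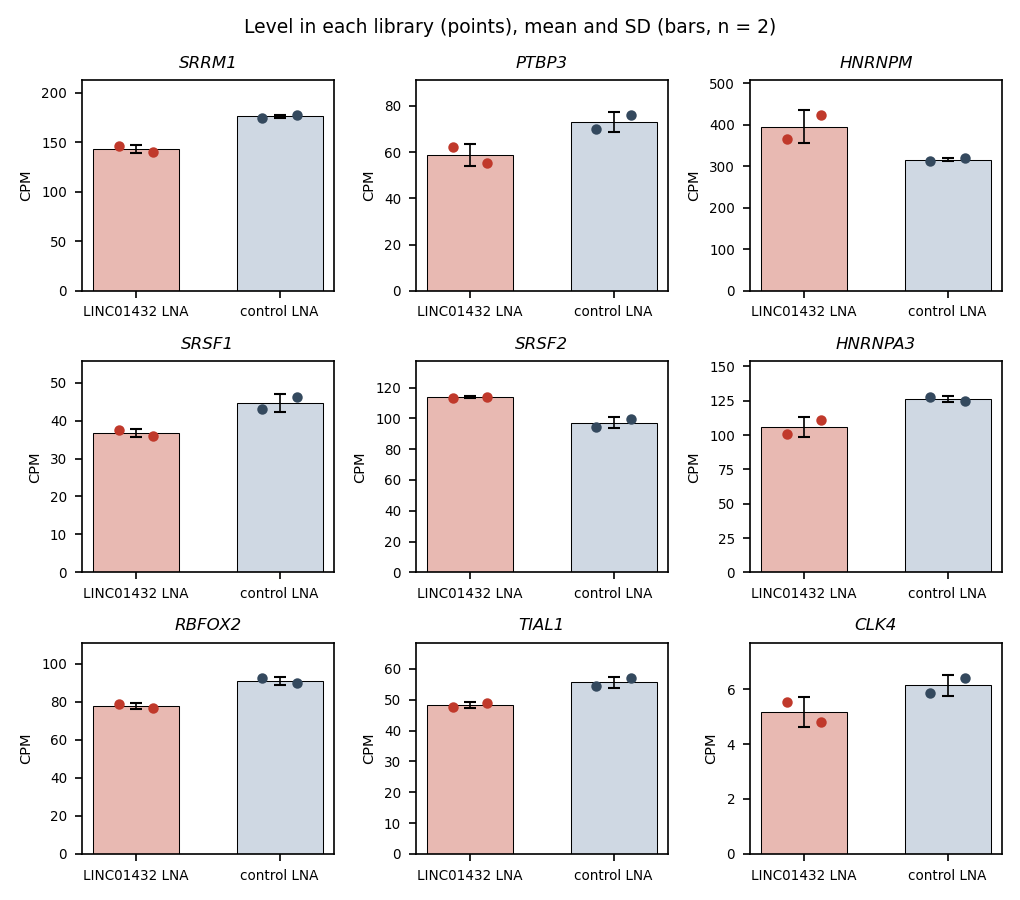
CPM (y axis, from 0) in each library of LINC01432 LNA and control LNA cells (points), with the mean and SD of the 2 libraries (bars), for the 3 called members, the 4 with an adjusted p between 0.05 and 0.10, and TIAL1 and CLK4 as the lowest p of their role groups. In all 9 genes the libraries of the groups do not overlap, as in 54.1% of all genes tested. The 9 were picked by their p-values, so this separation adds nothing to the test. HNRNPM and SRSF2 are higher in LINC01432 LNA cells and the other 7 are lower.

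Regulators known for tissue-type splicing were not called (edgeR, 0 of 5; 2 with an unadjusted p under 0.05; 0 by DESeq2 and 0 by limma-voom), though 4 of 5 lay below both controls (25.9% of all genes and 37.1% of those with at least 10 CPM), with a median log2 fold change of -0.23. That median was -0.105 without LINC01432 LNA replicate 2 and -0.269 without replicate 1. Over all genes, edgeR called 11.9%, and 25.7% had an unadjusted p under 0.05. RBFOX2, which binds UGCAUG and is known for muscle, brain and mesenchymal exons, had 78.8 and 76.5 CPM in LINC01432 LNA cells, against 92.5 and 89.7 CPM in control LNA cells (log2 fold change -0.23 ± 0.08, SE; edgeR, adjusted p = 0.0781). With a GC correction RBFOX2 was at -0.16 (edgeR, adjusted p = 0.121). The MBNL proteins, which drive adult splicing patterns and are sequestered in myotonic dystrophy, had log2 fold changes of -0.16 for MBNL1, -0.23 for MBNL2 and -0.24 for MBNL3. MBNL1, at 34.1 CPM per kb in LINC01432 LNA cells and 38.2 CPM per kb in control LNA cells the highest of them per exon length, had 359 and 323 CPM in LINC01432 LNA cells against 380 and 383 CPM in control LNA cells. QKI, a STAR-family regulator, had 75.2 and 71.5 CPM in LINC01432 LNA cells against 71.9 and 69.5 CPM in control LNA cells, and the groups overlapped. With the GC correction the median of the 5 was -0.08.

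The other RNA-binding regulators had a median log2 fold change of -0.04, and without LINC01432 LNA replicate 2 the median was -0.0973. None of the 6 was called in the main edgeR test, by DESeq2 or by limma-voom. In the main test 1 had an unadjusted p under 0.05. Over all genes, edgeR called 11.9%, and 25.7% had such a p. TIAL1, which like TIA1 binds U-rich intronic RNA beside weak splice sites, had 47.6 and 49.0 CPM in LINC01432 LNA cells, against 54.5 and 57.0 CPM in control LNA cells (log2 fold change -0.21; edgeR, adjusted p = 0.124). RBM39, the target of the indisulam degraders, had 143 and 140 CPM in LINC01432 LNA cells against 144 and 145 CPM in control LNA cells. RBM10, an exon repressor often mutated in lung adenocarcinoma, had 289 and 317 CPM in LINC01432 LNA cells against 307 and 302 CPM in control LNA cells, and with the GC correction its log2 fold change was -0.23 (edgeR, adjusted p = 0.0323). RBM5, its tumour suppressor relative, was at 0.08 and KHDRBS1 (SAM68) at -0.05 on the log2 scale. RBM5, RBM10, MBNL1 and HNRNPU share 15.6% to 17.4% of their exonic bases with genes on the opposite strand, so their values are uncertain to that degree.

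The libraries of a group also differed from each other. Over the 52 members the median absolute log2 difference between library 2 and library 1 was 0.11 in the LINC01432 LNA pair and 0.04 in the control LNA pair; over all genes tested it was 0.19 in the LINC01432 LNA pair and 0.11 in the control LNA pair, and over genes with at least 10 CPM it was 0.13 in the LINC01432 LNA pair and 0.06 in the control LNA pair. Most hnRNPs differed in the same direction within the LINC01432 LNA pair. There 16 of 18 were higher in library 2, with a median log2 difference of 0.15, against 59.2% of all genes with at least 10 CPM. In the control LNA pair 14 of 18 were higher in library 2, with a median of 0.03, against 52.6% of those genes. All 5 tissue-type regulators were lower in library 2 of the LINC01432 LNA pair, with a median of -0.15. In that pair 49.9% of all genes and 59.2% of those with at least 10 CPM were higher in library 2. This spread stands beside the calls: without control replicate 1 or control replicate 2, edgeR called 0 of the members (2 or 1 with an unadjusted p under 0.05; 3.82% or 5.27% of all genes called). Without LINC01432 LNA replicate 1 it called 21 members, 6 higher and 15 lower (26.4% of all genes called), and without LINC01432 LNA replicate 2 it called 23, 2 higher and 21 lower (21.6%). HNRNPM, SRRM1 and PTBP3 were among the called members in both of these last fits.

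**Figure D3:**
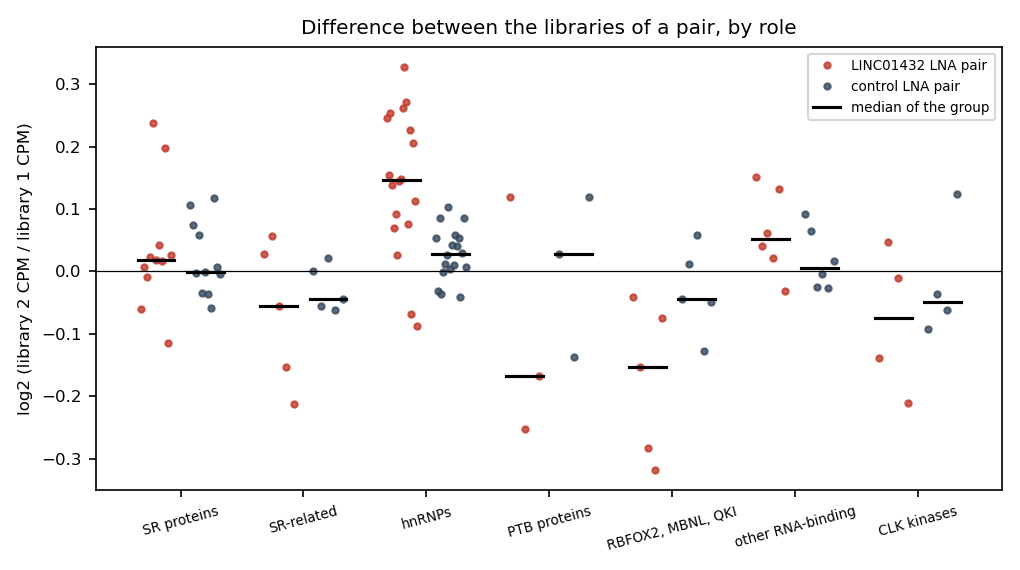
Log2 ratio of library 2 to library 1 (y axis) of each splicing regulator in the LINC01432 LNA pair (red, left) and the control LNA pair (dark, right), by role group, with the median of the group (black lines). The hnRNP medians are 0.15 in the LINC01432 LNA pair and 0.03 in the control LNA pair, and the RBFOX2, MBNL and QKI genes lie below 0 in the LINC01432 LNA pair.

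Fold changes of all genes moved with the GC content of their exons, and the splicing regulators sit at the low end of it. Over 17060 genes with an annotation, the lowest GC decile had a median of -0.14 (log2) and the highest a median of 0.37. The median exonic GC content was 40.9% for the members and 48.5% for all genes, and 34 of the 52 members fell in the lowest 3 deciles, none in the highest. In those 3 deciles the median was -0.13 for the members and -0.10 for all genes, and 25 of 52 members lay above the median of their own decile. After a GC correction the median of the members was -0.01, of SR proteins 0.11, of SR-related proteins -0.11, of hnRNPs -0.05 and of CLK kinases 0.04. It was -0.01 over all genes and -0.05 over genes with at least 10 CPM. With that correction 5 members were called: SRSF2 (0.26; edgeR, adjusted p = 0.0193) and HNRNPM were higher, and SRRM1, HNRNPL (-0.26; adjusted p = 0.0317) and RBM10 were lower. This was against 12.9% of all genes, 5.53% higher and 7.34% lower, and the split of all calls moved to 943 higher and 1252 lower.

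**Figure D4:**
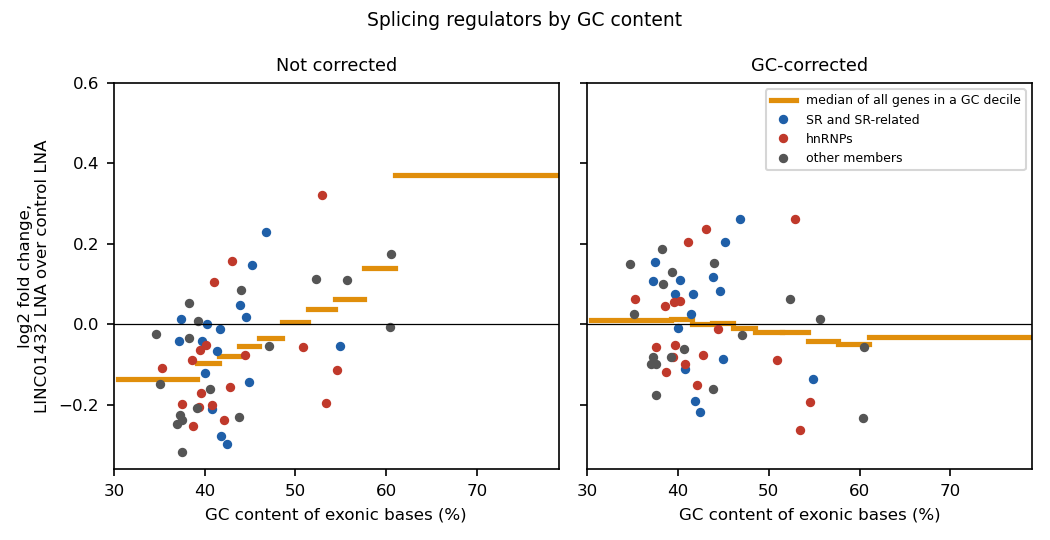
Log2 fold change (y axis, LINC01432 LNA over control LNA) against the GC content of exonic bases (x axis, %) for 52 splicing regulators (points, coloured by family), before (left) and after (right) a GC correction; orange lines are the medians of all genes in each GC decile. The 3 lowest deciles hold 34 of the 52 members; in the lowest, with 14 members, the median of all genes was -0.14 before the correction and 0.01 after it.

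Other genes of the splicing machinery filled 10 lists of 142 genes. Of the 127 tested, 8 rose, 5 fell and 114 were not called, that is 10.2% against 11.9% of all genes, with a median log2 fold change of -0.05. Among kinases, phosphatases and importers of SR proteins, SRPK1, which loads SR proteins with phosphate in the cytoplasm, fell. It had 89.3 and 86.5 CPM in LINC01432 LNA cells against 106 and 109 CPM in control LNA cells (log2 fold change -0.29, edgeR, adjusted p = 0.0318). With the GC correction SRPK1 was at -0.24 (edgeR, adjusted p = 0.0286). PPP1CA of the same list, at -0.03 and not called in the main test, was then called lower (-0.48, edgeR, adjusted p = 0.000817). PPP2CA, the catalytic subunit of protein phosphatase 2A, rose, with 8.30 and 10.02 CPM in LINC01432 LNA cells against 4.02 and 4.81 CPM in control LNA cells (1.06; edgeR, adjusted p = 0.00126); its call held without each library in turn. SRPK1 lost its call without control replicate 1 or 2 (0.353 or 0.475).

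Of core components, SNRNP70 of the U1 particle (0.34; edgeR, adjusted p = 0.0371) and SF3A2 of the U2 particle (0.47; adjusted p = 0.00290) rose, and with the GC correction they were at 0.06 and 0.02 and not called (adjusted p = 0.614 and 0.900). No gene of the Sm ring (7 tested) or of the U5, tri-snRNP and Prp19 components (21 tested) was called in the main edgeR test. Nor was any gene of the minor spliceosome (8 tested). In this order, 2, 2 and 1 genes had an unadjusted p under 0.05 there, and DESeq2 and limma-voom called 0. With the GC correction 1 gene of the Sm ring, SNRPD3 (-0.34, edgeR, adjusted p = 0.0226), and 1 of the minor spliceosome were called lower, against 7.34% of all genes. SNRPD3 was also called with the replicate number as a block (-0.29, edgeR, adjusted p = 0.00728). RBM8A, a core protein of the exon junction complex, fell (-0.47; edgeR, adjusted p = 0.0249), but DESeq2 did not call it (adjusted p = 0.0523); it has 25.05% of its exonic bases shared with genes on the opposite strand. Of the factors of nonsense-mediated decay, the pathway that removes transcripts with poison exons, 2 of 10 rose, against 7.5% of all genes. They were the helicase UPF1 (0.35, edgeR, adjusted p = 0.0140) and SMG9 (0.46, edgeR, adjusted p = 0.0189). With the GC correction UPF1 was at 0.16 (edgeR, adjusted p = 0.128).

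Among other hnRNP-like genes, 2 of 21 tested rose and 2 fell, against 7.5% and 4.37% of all genes. PCBP1, a poly(C)-binding protein, rose to 61.3 and 63.6 CPM in LINC01432 LNA cells, against 20.7 and 26.5 CPM in control LNA cells (1.41 ± 0.11, SE; edgeR, adjusted p = 2.7e-05). Genes on the opposite strand, PCBP1-AS1 among them, share 52.2% of the exonic bases of PCBP1. Without a known strand setting the reads of these genes and PCBP1 cannot be told apart there. SYNCRIP (hnRNP Q) fell to 31.8 and 26.5 CPM in LINC01432 LNA cells, against 40.6 and 42.4 CPM in control LNA cells (-0.51 ± 0.10, SE; edgeR, adjusted p = 0.00612). PCBP1 and SYNCRIP were called without each library in turn. HNRNPUL2 fell (-0.33, edgeR, adjusted p = 0.0197), and 44.2% of its exonic bases are shared on the same strand. KHSRP, named here after its value was seen, rose (0.30, edgeR, adjusted p = 0.0383) and was at 0.08 with the GC correction. Of other tissue-type regulators, 14 of 27 could be tested; RBM38, a p53 target, rose (0.46; edgeR, adjusted p = 0.0126; 0.15 and adjusted p = 0.182 with the GC correction) and ESRP1, an epithelial splicing regulator, fell (-0.40; adjusted p = 0.0212; DESeq2, adjusted p = 0.0569). SNRNP70, SF3A2, UPF1, SMG9, HNRNPUL2, KHSRP, RBM38 and ESRP1 lost their calls without control replicate 1 (edgeR, adjusted p from 0.113 to 0.681) and without control replicate 2 (0.0958 to 0.494), and RBM8A without control replicate 2 (0.225).

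**Figure D5:**
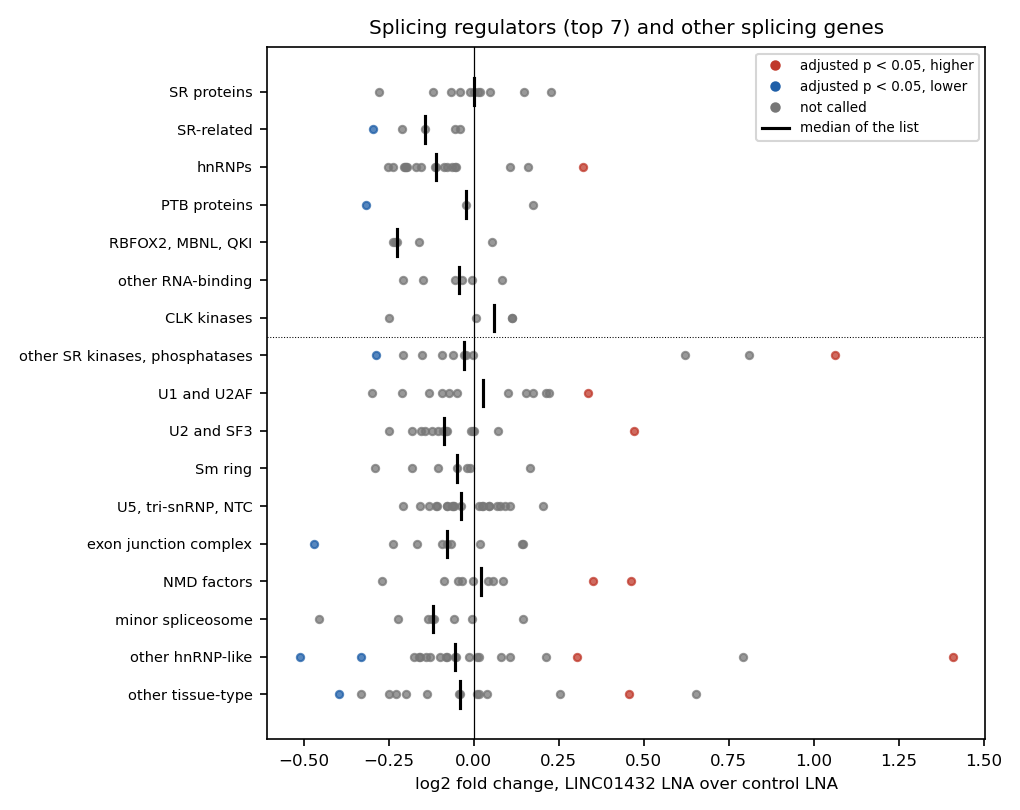
Log2 fold change (x axis, LINC01432 LNA over control LNA) of each tested gene (points) of the 7 role groups of splicing regulators (top) and 10 lists of other splicing genes (bottom); red and blue points were called higher and lower, and black lines are medians. The regulators lie between -0.32 and 0.32, while PCBP1 and PPP2CA reach 1.41 and 1.06 among the other genes.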

How the data were processed

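Per the file headers and values, the authors deposited whole-number counts per gene for 4 libraries, not normalized. The submitters' processing notes name bcl2fastq, STAR (2.7.11b), Subread with featureCounts (2.0.8), Salmon (1.10.0) and GRCh38. The annotation release and the strand setting were not given in the sources used here. The protocols state ribosomal RNA depletion by RNase H, but the design text states poly(A) libraries. Rows of 92 ERCC spike-ins and 5 transgenes (at most 4.2e-05% of a library) were left out. Libraries held 20873393 to 29161298 gene counts.

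Groups and replicate numbers came from titles. The test was the edgeR 4.0.16 quasi-likelihood F test in R 4.3.3 (TMM, filterByExpr with minimum count 10 and total 15, group as the only term), adjusted over 18680 genes and checked on simulated counts; standard errors come from the F statistic. The smallest p of an exact permutation of 2 against 2 libraries is 0.333, so calls rest on the spread that edgeR shares between genes (biological coefficient of variation 7.13%). Intervals are 95%. Symbols came from a table that held 61481 of the gene IDs; GC content, exon length and overlap came from GENCODE 29 (57356 IDs). GC corrections subtract each library's lowess trend (span 0.3) of log2 CPM. Figures used matplotlib 3.10.9.

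The members and lists were chosen with earlier results of these data known. Named with values in every library were called members, those with adjusted p from 0.05 to 0.10 and the smallest p of each role group, with further members as examples chosen after their values were seen; of each other list, up to 3 called genes with the smallest p. MATR3 had more than 1 ID and was not tested. Alternatives were DESeq2 1.42.0 (size factors, and its Wald test), limma 3.58.1 (voom), library totals, other filters, no mitochondrial, immunoglobulin or structured RNA genes, GC and length corrections, the replicate number as a block, stricter thresholds, and leaving out each library.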

Additional observations from a re-analysis of the deposited data

How the results depend on the processing

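With 2 libraries a group, counts of calls depended on the libraries more than on the tool. Of all genes, 2218 were called, and leaving out 1 library gave 766 to 5228; of the members it gave 0 to 23, of SR proteins 0 to 4, of SR-related genes 0 to 4, of hnRNPs 0 to 14 and of tissue-type regulators 0 to 4. Called only where a LINC01432 LNA library was left out were SRSF3, TRA2A, SRRM2, SON, HNRNPA1, HNRNPA2B1, HNRNPC, HNRNPF, HNRNPH1, HNRNPK, HNRNPR, HNRNPU, PTBP1, MBNL1, MBNL2, TIA1 and TIAL1. In these fits the lone library of a group is assumed to vary like the other group's pair. No CLK kinase was called in any fit. The main count of 3 members was also given by DESeq2's size factors, library totals, no filter, a filter at 1 CPM, DESeq2's Wald test and limma-voom, and leaving out mitochondrial, immunoglobulin and structured RNA genes gave 4; DESeq2's size factors replaced HNRNPM with SRSF1 (SR proteins 1, hnRNPs 0), library totals replaced PTBP3 with HNRNPA3 (hnRNPs 2), and leaving out those RNA genes added SRSF1 (SR proteins 1). Adjusted p under 0.01 called 1000 genes and 0 members, and a fold of at least 1.5 called 954 genes and 0 members, SR-related genes and hnRNPs 0 in each.

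A GC correction called 5 members (SR proteins 1, hnRNPs 2), and GC with exon length 6, against 12.9% of all genes (SR proteins 2, SR-related genes 0, hnRNPs 2, tissue-type regulators 1), adding SRSF2, SRSF10, HNRNPAB, QKI and RBM10 to HNRNPM. Same-numbered libraries deviated together only weakly (r = 0.135 over 18680 genes, a correlation across genes), and with only 2 numbers this does not show pairing. With the replicate block, 3862 genes (20.7%) and 10 members were called (SR proteins 2, hnRNPs 4, tissue-type regulators 2). It added SRSF1, SRSF2, HNRNPA3, HNRNPH2, HNRNPH3, RBFOX2 and MBNL3 to the 3. GC correction with the block called 3800 of 17060 genes and 11 of 52 members (SR proteins 3, hnRNPs 5, tissue-type regulators 1). Among these members were SRSF5, HNRNPA0 and HNRNPDL. The cause of these differences was not tested.

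Some log2 fold changes changed sign. In the main test HNRNPU was at -0.20, PTBP1 at 0.18, TIA1 at -0.15 and SRSF3 at -0.12, so these were not only the smallest values. With the GC correction, that correction with the replicate block, and the GC and length correction, in this order, they were 0.0459, 0.0427 and 0.0804 for HNRNPC, 0.0558, 0.0546 and 0.0865 for HNRNPD, 0.0585, 0.0591 and 0.0789 for HNRNPLL, 0.0634, 0.0579 and 0.109 for HNRNPR, -0.0556, -0.0556 and -0.0263 for PTBP1, 0.151, 0.154 and 0.211 for PTBP2, 0.101, 0.101 and 0.160 for RBM39, 0.108, 0.106 and 0.152 for SRSF11, 0.0761, 0.0754 and 0.122 for SRSF4, 0.109, 0.108 and 0.115 for SRSF6, 0.0259, 0.0251 and 0.0242 for SRSF7, 0.0265, 0.0186 and 0.0534 for TIA1, and 0.0765, 0.0751 and 0.135 for TRA2B. With GC and length alone HNRNPH1 was at 0.0384, HNRNPU at 0.00377 and SRSF3 at 0.0240. CLK1 was at -0.00278 with DESeq2's size factors, -0.00169 in DESeq2's Wald test, -0.00750 without a filter and -0.00177 without mitochondrial, immunoglobulin and structured RNA genes. SRSF10 was at -0.00336 without a filter, and RBM10 at 0.00490 and SRSF6 at 0.0105 with the filter at 1 CPM. Leaving out 1 library gave -0.0794 to 0.0582 for CLK1, -0.0406 to 0.206 for HNRNPA0, -0.232 to 0.0302 for HNRNPH1, -0.168 to 0.0836 for PTBP2, -0.00230 to 0.0710 for QKI, -0.0911 to 0.0413 for RBM10, -0.151 to 0.00175 for SRRM2, -0.0627 to 0.0511 for SRSF10, -0.0592 to 0.00506 for SRSF4 and -0.101 to 0.0973 for SRSF9. None of these genes was called in the main test. The lowest mean of a tested member was 3.49 CPM (PTBP2).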
